A study of Mus musculus with 12 samples.

Results

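The genes described here are 37 mouse genes of motile cilia, the beating hairs on the ependymal cells that line the central canal of the spinal cord. They were taken as a list of symbols that applies no measured threshold, though the list was drawn up with earlier results of these data known, and 37 of 37 were found among the 49548 genes counted in every library. RNA sequencing of the lumbar spinal cord gave 1 library per mouse from 8 MFN2 and 4 WT mice, all untreated and 30 days old. MFN2 mice were hemizygous MitoCharc1 transgenics, a model of the axonal neuropathy Charcot-Marie-Tooth type 2A on a mixed B6;D2 strain, and carried human MFN2 with the R94Q substitution behind the rat Eno2 promoter, which acts mainly in neurons, beside both mouse copies of Mfn2. WT mice carried no transgene; their label gives C57BL/6, and the study's methods describe them as littermates. Ependymal cells are therefore not the cells in which the transgene was mainly driven. MFN2 libraries bear the numbers 41 to 43 and 72 to 76, and WT libraries 44 to 47, so that the 5 libraries 72 to 76 hold no WT mouse. Total counts ran from 19359454 to 26738930 per library.

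A motile cilium is built on an axoneme, a ring of doublet microtubules around a central pair. Dynein motors on each doublet drive the beat, while radial spokes, the central pair apparatus and the regulatory complex between doublets coordinate it. In the spinal cord such cilia are carried by ependymal cells, which contact the cerebrospinal fluid. Foxj1, a forkhead factor, and the RFX factors, which bind DNA motifs called X-boxes, switch on genes of the motile cilium.

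MFN2 library 43 went against its tissue label, and 2 WT libraries stood apart in the cilia genes themselves. There the summed level of 12 forebrain neuron genes was 4835 CPM (counts scaled to a common library size), against 240.8 to 310.6 CPM in the other 11 libraries. The 12 caudal Hox genes that mark spinal cord summed to 49.03 CPM, against 291.3 to 360.9 CPM elsewhere, and the 7 motor neuron markers summed to 36.79 CPM, against 161.6 to 391.9 CPM. Values that library 43 moves by much are given with and without it, and the list as a whole also without WT libraries 44 and 47, which were singled out after their values were seen.

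All 37 genes were weakly expressed. As CPM per kilobase of exon (RPKM, median of 12 libraries), Foxj1 was highest at 5.07, followed by Drc1 at 2.51, Nme5 at 2.22, Rsph1 at 2.20, Rsph9 at 2.20 and Ccdc39 at 1.99. The libraries of neighbouring genes in this order overlapped. When length was taken as the longest transcript instead of all exon bases, Nme5 was at 3.01, Rsph9 at 3.64 and Ccdc39 at 4.11, and Ccdc153 at 2.89 RPKM stood above Drc1 and Rsph1, so that the 6 highest genes depend on the length used. Dynein heavy chains, the motor subunits, lay between 0.302 RPKM for Dnah12 and 0.769 RPKM for Dnah9, and Hydin, a very large central pair protein, was at 0.441 RPKM. In the plot of levels per exon length the 12 libraries of a gene spread over several times their lowest value. Of the 37 genes, 32 passed the filter of more than 1 CPM in at least 3 libraries, together with 15942 genes in all, and raw counts of these 32 ran from 4 to 553 per library. The 5 below it were Spag17, a central pair protein, with 208 counts over all libraries, Dynlrb2, a dynein light chain, with 174, Tmem212 with 128, Pifo with 113 and Sntn, a protein of the cilium tip, with 10 counts and 0 in 7 libraries. A count of 0 in a library allows a level of up to 0.112 to 0.155 CPM (3 counts, counting error only).

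**Figure D1:**
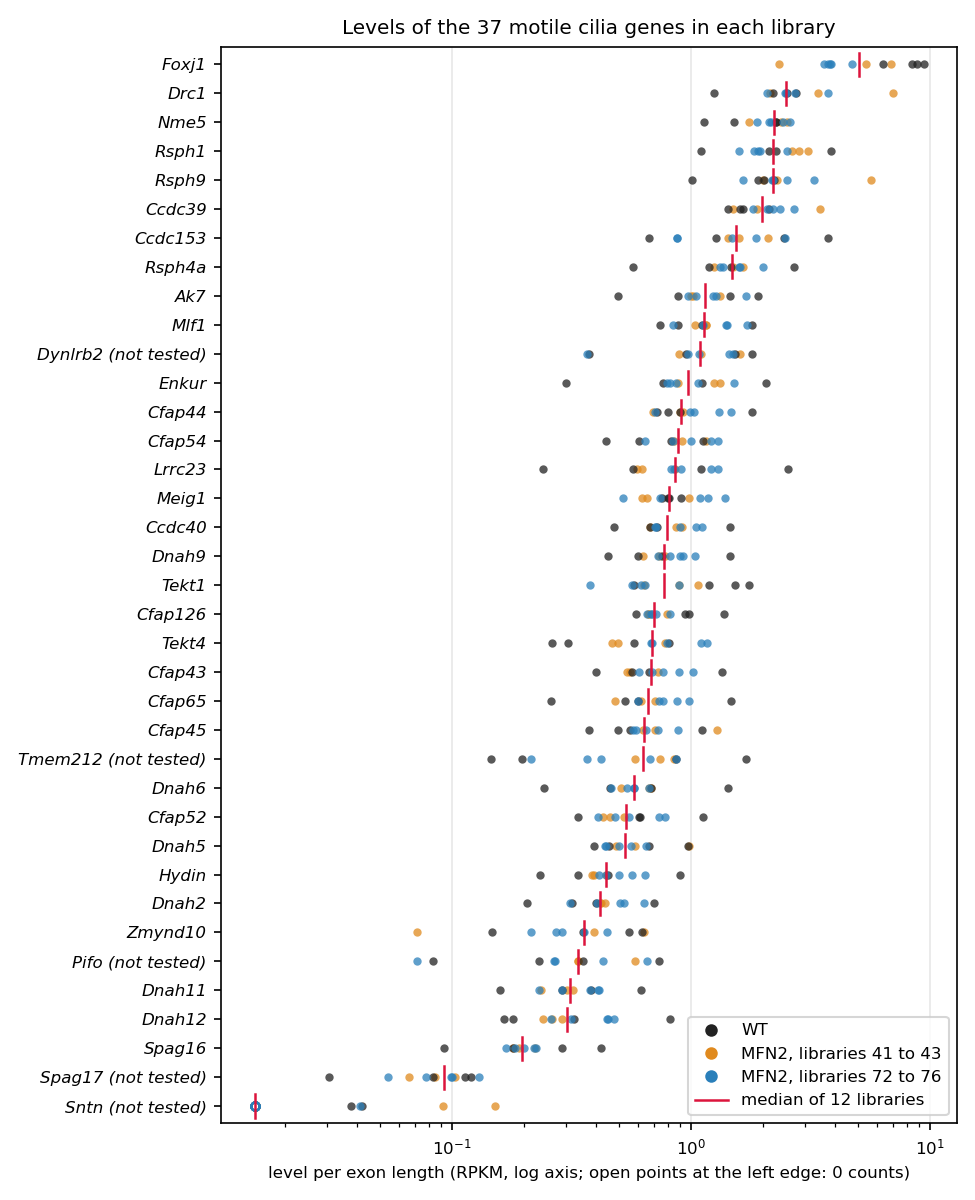
Level per exon length (RPKM, log axis) of each of the 37 genes in each library, ordered by the median of the 12 libraries (red bar), with 1 point per library coloured by group. Foxj1 lies highest at a median of 5.07 RPKM and Sntn at 0, and the lowest and highest points of many genes are both WT libraries.

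In 19 of the 32 tested genes the highest and the lowest of the 12 libraries were both WT mice, and in 18 they were WT libraries 44 and 47. WT library 44 held the highest level of 21 of the 32 tested genes (65.6%), while 6.78% of all tested genes were highest there, and WT library 47 held the lowest level of 25 of 32 (78.1%), against 10.4% of all tested genes. Dnah6, an inner arm dynein chain, measured 19.03 CPM in library 44 and 3.24 CPM in library 47, with 6.08 and 8.99 CPM in WT libraries 45 and 46. Its 8 MFN2 libraries all fell between these values, at 6.17 to 9.01 CPM with a median of 7.66 CPM. Rsph4a, a radial spoke head protein, measured 9.87 CPM in library 44, 4.33 in 45, 5.36 in 46 and 2.09 in 47, with MFN2 libraries at 4.58 to 7.32 CPM and a median of 5.65 CPM. Hydin measured 16.2, 6.08, 8.15 and 4.23 CPM in WT libraries 44 to 47, and 6.94 to 11.6 CPM in MFN2 libraries. Again the MFN2 libraries lay inside the range of the 4 WT libraries. The ratio of library 44 to library 47 had a median of 3.13 over the 32 genes, and was widest for Lrrc23, a radial spoke protein (10.6), Enkur, of the tubule lumen (6.88), Dnah6 (5.88), Cfap65 (5.66) and Ccdc153 (5.63). Lrrc23 and Enkur were at 0.417 and 0.470 CPM in library 47, where few counts support them.

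This spread ran through every structural part of the axoneme. Of the 6 tested dynein heavy chains, 5 were highest in library 44 and 6 lowest in library 47. Of the 5 radial spoke genes (Rsph1, Rsph4a, Rsph9, Lrrc23 and Nme5), 3 were highest in 44 and 5 lowest in 47. Among the 3 tested central pair genes, Hydin, Cfap54 and Spag16, these counts were 2 and 3, and among the 6 tested proteins of the tubule lumen, such as the tektins Tekt1 and Tekt4, they were 4 and 5. The 5 genes of the axonemal ruler (Ccdc39 and Ccdc40), the regulatory complex (Drc1) and the dynein tether (Cfap43 and Cfap44) had 3 and 3. Foxj1, Ccdc39, Meig1 and Zmynd10 were neither highest in 44 nor lowest in 47. Foxj1 was highest in WT library 45 and lowest in MFN2 library 43, and it was the only tested gene of the list with a lower level in library 44 than in 47, at 0.758 times. Ccdc39 and Meig1 had the next smallest ratios, 1.319 and 1.203. The summed level of the 37 genes was 276.5, 145.6, 177.6 and 106.3 CPM in WT libraries 44 to 47 and 144.3 to 207.4 CPM in MFN2 libraries. Its mean was 176 ± 72.8 CPM in WT (SD, n = 4) and 174 ± 19.7 CPM in MFN2 (SD, n = 8). In RNA of whole cord, fewer ependymal cells and less RNA per cell cannot be told apart.

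**Figure D2:**
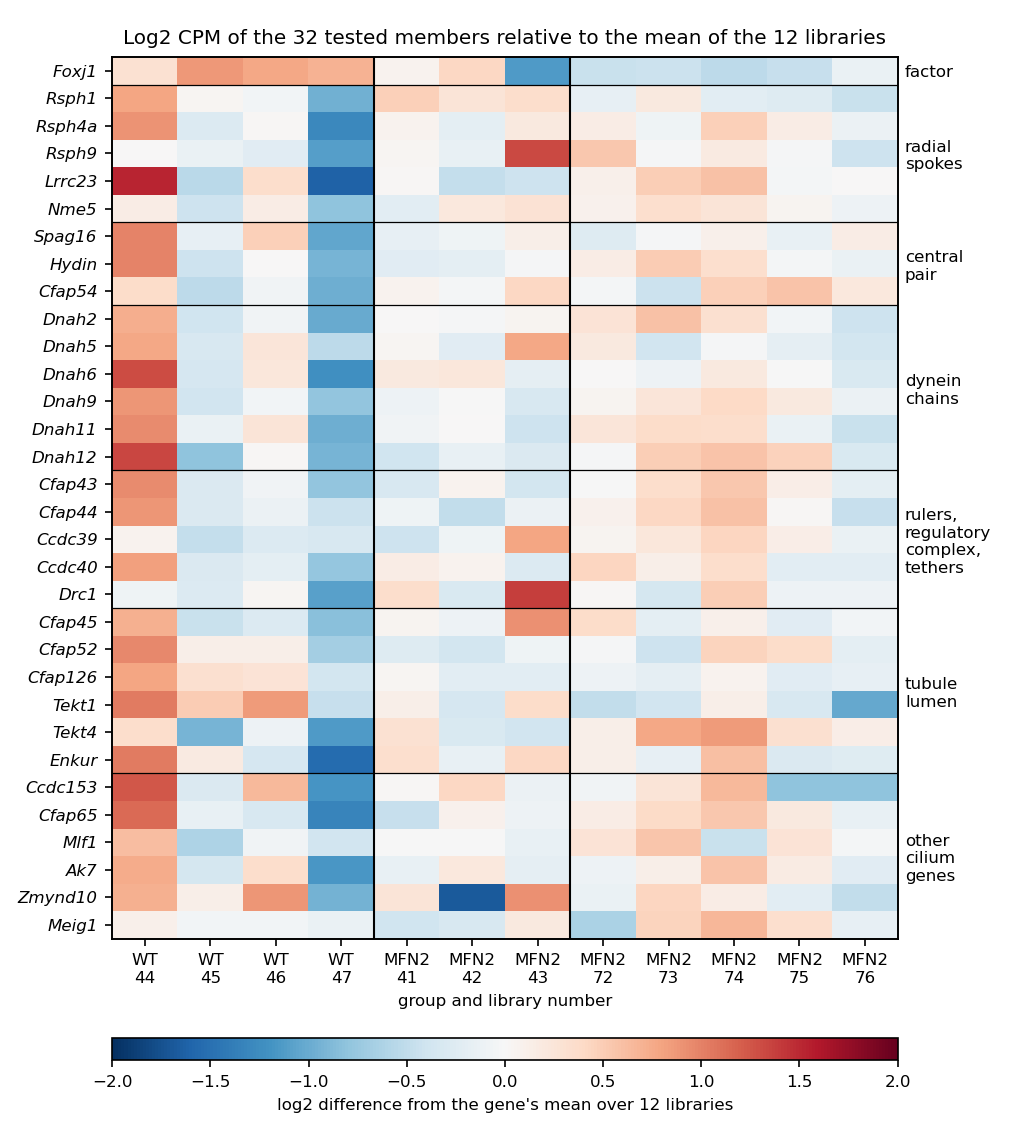
Log2 CPM of the 32 tested genes in each library relative to the gene's mean over the 12 libraries, with genes grouped by their part in the cilium and libraries by group. WT library 44 is high (median 0.80) and WT library 47 low (median -0.94) in most genes, while Foxj1 is above its mean in both.

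The other gene lists differed in how far they moved in libraries 44 and 47, and further motile cilia genes moved in the same direction. Among 71 further motile cilia genes that passed the filter, 53 were above the other 3 WT libraries in library 44 (median log2 difference 0.64) and 41 below them in library 47 (median -0.44). Over the 32 genes described here these counts were 29 (median 1.14) and 29 (median -1.03), and over all tested genes 30.3% were above in 44 and 27.1% below in 47. Intraflagellar transport and BBSome genes, which carry cargo in motile and primary cilia alike, had a median of 0.04 in library 44 and -0.01 in library 47 (39 genes), and genes of the primary cilium membrane 0.10 and -0.10 (21 genes). Ependymal genes with products outside the axoneme, such as Sox2, Sox9 and Prom1, had 0.13 and -0.08 (13 genes). Regulators of multiciliation had 0.31 and -0.08 (13 genes), and among them Myb, which acts early in the making of multiciliated cells, measured 13.6 CPM in library 44 and 1.23 to 5.87 CPM in the other 11. Rfx2, an X-box factor, was highest in library 44 (5.63 CPM) and lowest in library 47 (2.45 CPM). Of the 13 regulators, however, only 2 were highest in library 44, while 4 were highest in library 43 and 4 lowest in library 47. Rfx7, the most abundant of them, measured 53.96 CPM in library 44 and 47.64 CPM in library 47.

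Markers of other cell types also differed between these mice. All 6 tested markers of the meninges were above the other WT libraries in library 44, and the 7 measured summed to 474.7 CPM there, with Col1a1 the most abundant at 266.8 CPM, against 102.9 to 350 CPM elsewhere. In library 47 all 7 motor neuron markers were above the other WT libraries, and their sum of 391.9 CPM was the highest of the 12. Choroid plexus is another epithelium with cilia, and 8 of 16 genes of its list passed the filter. The 16 summed to 249.3 CPM in library 43 and 447.8 to 730.7 CPM elsewhere, highest in library 47, and nearly all of it was Enpp2 (median 517 CPM), which oligodendrocytes also make. Prlr had a median of 12.6 CPM and Kl of 3.29 CPM, and Aqp1 was highest in library 44, at 4.93 CPM against a median of 1.53 CPM. In library 44, 4 of the 8 tested genes were above the other 3 WT libraries and 4 below them. Their median log2 difference from those libraries was 0.10 in library 44 and -0.12 in library 47. Of the genes that define this epithelium, Ttr had a median of 0.105 CPM and at most 3.86 CPM (library 47), Folr1 and Kcnj13 reached 0.663 and 0.329 CPM, and Otx2 had a median of 0 and reached 1.31 CPM in library 43. The part of meninges, choroid plexus or the dissected region in the spread of the cilia genes was not tested.

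**Figure D3:**
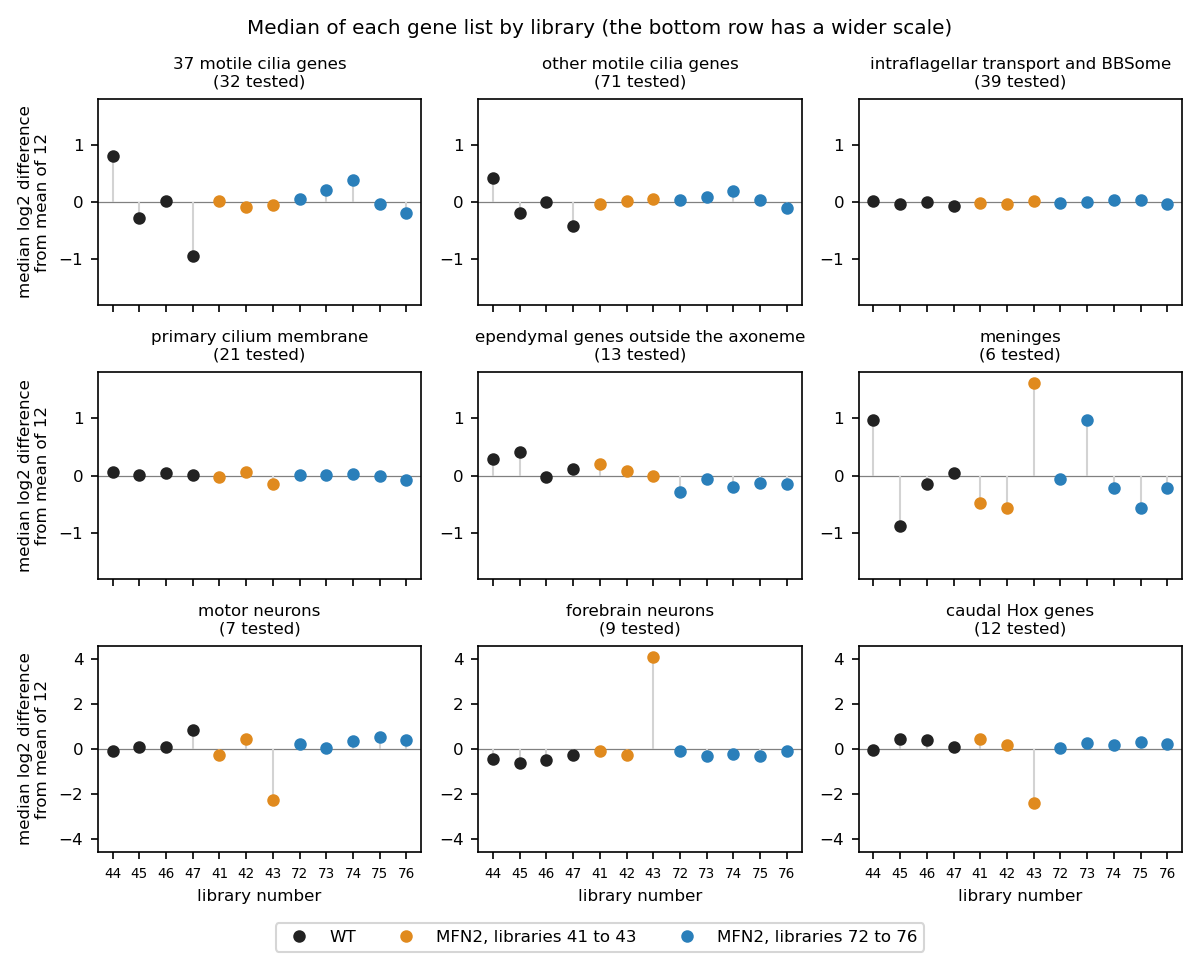
Median log2 difference from the mean of the 12 libraries for 9 gene lists, with 1 point per library, coloured by group; the bottom row has a wider scale. The cilia genes differ between WT libraries 44 (0.80) and 47 (-0.94), while transport genes stay near 0 and library 43 is high in forebrain genes and low in Hox genes.

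As the libraries share these differences, the genes correlated with each other. Over 12 libraries the median Pearson r of log2 CPM was 0.58 among the 496 pairs of tested genes, 0.50 without library 44 and 0.23 without libraries 44 and 47, which is a description of these libraries. Rsph4a had the highest correlation with the mean of the other cilia genes (0.96), Meig1, a gene of sperm development, had 0.34, and Foxj1 had -0.39. Outside the list, the gene most like the mean of the 32 was Drc7, of the regulatory complex (r = 0.95, and 0.93 without library 44), which measured 5.81 CPM in library 44, 0.731 CPM in library 47 and 1.17 to 3.38 CPM in the other 10. It was followed by Ak9 (0.94), 1500015O10Rik (0.94), Mapk15 (0.93) and Sntb1 (0.92), and 7 of the 15 most alike genes were on the list of other motile cilia genes. Each of these values has the same libraries as its points, and counting error at low counts enters all of them.

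Because these genes varied together, their promoters were searched for X-box letters, GTNNCC followed after 1 to 4 bases by GNAAC on either strand, in the 250 bases before and 50 after the start (RefSeq, GRCm38.p6). Of the 37 genes, 31 were in the promoter table, and 14 of these (45.2%) held such a match, against 5.94% of all 27025 genes in the table and 45.7% of 70 other motile cilia genes. With a gap of 3 bases the shares were 25.8% and 2.49% of all genes, and with 2 bases 16.1% and 1.81%. The forkhead letters TGTTTAC stood in 4 promoters, of Ak7, Cfap43, Mlf1 and Sntn (12.9%, against 4.05% of all genes and 4.29% of the other motile cilia genes). The stretches below belong to the 6 tested genes with the widest ratio of library 44 to 47 among those whose X-box match lay wholly before the start, and Ak7 is added as the forkhead match with the widest ratio; capitals mark the matched letters, and each is written 5′ to 3′ on the strand of its gene. A match is not a measured binding site.
Lrrc23, chr6:124779859-124779911, minus strand: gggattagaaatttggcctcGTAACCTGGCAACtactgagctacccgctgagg
Enkur, chr2:21205366-21205411, minus strand: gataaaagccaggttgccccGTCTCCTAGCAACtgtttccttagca
Ccdc153, chr9:44240524-44240575, plus strand: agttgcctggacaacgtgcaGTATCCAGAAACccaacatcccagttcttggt
Spag16, chr1:69826847-69826900, plus strand: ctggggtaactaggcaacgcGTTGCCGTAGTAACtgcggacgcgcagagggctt
Hydin, chr8:110266936-110266976, plus strand: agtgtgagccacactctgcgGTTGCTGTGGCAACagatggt
Dnah9, chr11:66168601-66168653, minus strand: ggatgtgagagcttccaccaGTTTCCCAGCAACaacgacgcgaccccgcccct
Ak7, chr12:105705831-105705877, plus strand: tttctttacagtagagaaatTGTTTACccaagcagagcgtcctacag

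The first comparison asked whether cilia genes differed between MFN2 and WT cord over all 12 libraries. None of the 32 tested genes passed an adjusted p of 0.05 (edgeR quasi-likelihood test, Benjamini-Hochberg adjustment over 15942 genes), and 0% of all tested genes did, with 2386 genes at an unadjusted p under 0.05. Of the 32 genes, 15 were above and 17 below WT, with a median log2 fold change of -0.02 where that of all genes was 0.00, and 3 had an unadjusted p under 0.05, all of them lower. In no cilia gene did the 8 MFN2 and 4 WT libraries fail to overlap, against 2.04% of all genes. DESeq2 called 200 genes, Foxj1 among them (adjusted p = 0.0154), and limma-voom called 0.

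Foxj1 (ENSMUSG00000034227, GRCm38 chr11:116330704-116335399, minus strand) had the largest difference. It measured 16.8, 24.7, 23.1 and 22.1 CPM in WT libraries 44 to 47, 14.2, 18.1 and 6.15 CPM in MFN2 libraries 41 to 43, and 9.97, 10.1, 9.41, 9.79 and 12.4 CPM in libraries 72 to 76. Only MFN2 library 42 lay above any WT library, namely 44, and the lowest value came from library 43, the one at odds with its tissue label. Its log2 fold change was -0.94 (SE 0.22, edgeR adjusted p = 0.254) and without library 43 -0.85 (edgeR adjusted p = 0.0719), and over 24 alternative fits its adjusted p ran from 0.0154 to 0.554.

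Tekt1 (ENSMUSG00000020799, chr11:72344722-72362442, minus strand), which encodes a filament protein inside the doublets, measured 2.84, 1.93, 2.48 and 0.939 CPM in WT libraries 44 to 47. In MFN2 it measured 1.45, 1.03 and 1.74 CPM in libraries 41 to 43 and 0.923, 1.00, 1.45, 1.04 and 0.612 CPM in libraries 72 to 76. WT library 47 lay within the MFN2 range and the other 3 WT libraries above it, and the log2 fold change was -0.82 (SE 0.30, edgeR adjusted p = 0.278).
Tekt4 (ENSMUSG00000024175, chr17:25454615-25476602, plus strand), another tektin, had the opposite sign: 1.61, 0.612, 1.15 and 0.522 CPM in WT libraries, 1.56, 0.993 and 0.938 CPM in libraries 41 to 43, and 1.36, 2.21, 2.33, 1.59 and 1.38 CPM in libraries 72 to 76. The groups overlapped, with libraries 73 and 74 above every WT library, and the log2 fold change was 0.65 (edgeR adjusted p = 0.375).
Rsph9 (ENSMUSG00000023966, chr17:46122035-46144216, minus strand), a spoke head protein, measured 3.58, 3.25, 3.06 and 1.62 CPM in WT libraries, 3.66, 3.21 and 9.06 CPM in libraries 41 to 43 and 5.23, 3.51, 4.06, 3.52 and 2.65 CPM in libraries 72 to 76. Library 43 was far above the rest, and the log2 fold change was 0.60 (edgeR adjusted p = 0.382), and 0.36 without that library.

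The other genes highest in level on the list overlapped in the same way. Drc1 (ENSMUSG00000073102, chr5:30281388-30366695, plus strand), a scaffold of the regulatory complex, measured 6.77, 5.93, 7.35 and 3.34 CPM in WT libraries, 9.16, 5.77 and 18.8 CPM in libraries 41 to 43 and 5.57 to 10.1 CPM in libraries 72 to 76, with library 43 again highest. Its log2 fold change was 0.58, and 0.32 without library 43 (edgeR adjusted p = 0.396). Nme5 (ENSMUSG00000035984), of the radial spokes, measured 2.62, 1.74, 2.61 and 1.30 CPM in WT libraries and 2.02 to 3.01 CPM in MFN2 libraries. Library 47 was lowest of all 12. Rsph1 (ENSMUSG00000024033, chr17:31255019-31277383, minus strand) measured 5.28, 3.11, 2.92 and 1.51 CPM in WT libraries, which span the 2.19 to 4.23 CPM of the MFN2 libraries.

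**Figure D4:**
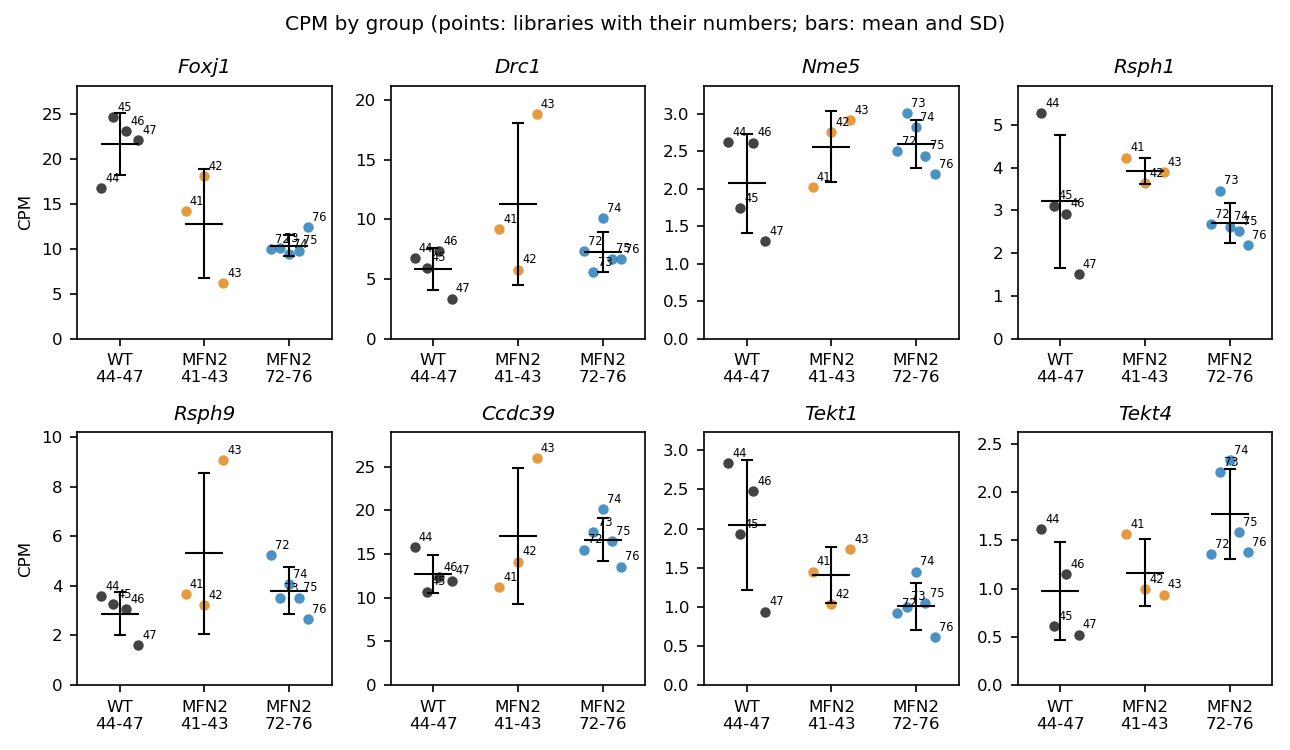
CPM of the 8 genes given library by library, for WT libraries 44 to 47, MFN2 libraries 41 to 43 and MFN2 libraries 72 to 76; points are libraries with their numbers and bars the mean and SD. Foxj1 of libraries 72 to 76 (10.3 ± 1.18 CPM) lies below WT (21.7 ± 3.44 CPM), and library 43 is the highest point of Drc1, Rsph9 and Ccdc39.

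The median of the cilia genes moved most with WT library 44. Without it 28 of 32 genes were above WT and 4 below, and the median log2 fold change was 0.44 where that of all genes was 0.01. Of the 32, 9 higher and 1 lower had an unadjusted p under 0.05 in edgeR. The adjusted threshold was passed by 0 of them and by 0 of all genes. How many of all genes had such an unadjusted p without library 44 was not counted. With every library 2386 of 15942 did. Without library 47, 9 of the 32 were above and 23 below, with a median of -0.25. Without both, an alternative chosen after seeing the data, 24 were above and 8 below (median 0.22). In the 21 alternatives that kept library 44 the median lay between -0.25 and 0.10 and was above 0 in 5 of them. Leaving out library 43 left the median at 0.00 with 19 genes called in all and no cilia gene among them. Without 43 and 44, also chosen after seeing the data, 150 genes were called, among them Foxj1 (edgeR adjusted p = 0.0355).

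**Figure D5:**
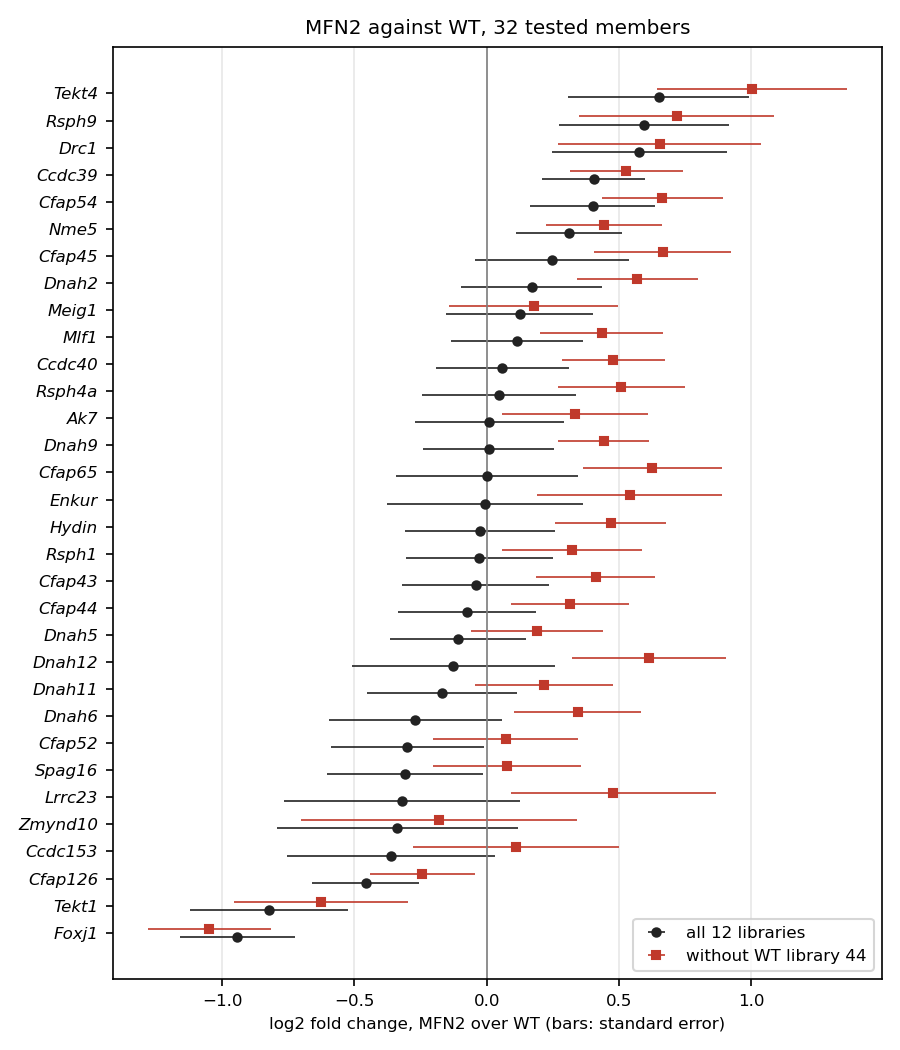
Log2 fold change of MFN2 over WT for the 32 tested genes with all 12 libraries (black circles) and without WT library 44 (red squares), with bars for the standard error. The median moves from -0.02 to 0.44, while Foxj1 and Tekt1 stay lowest.

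Within libraries 41 to 47, the run that holds both genotypes, no cilia gene was called, while 1 of 15941 genes was (0.00627%). The 3 MFN2 and 4 WT libraries overlapped in every cilia gene, against 8.81% of all genes without overlap. Of the 32 genes, 11 were above and 21 below WT, and the median log2 fold change was -0.15. None of the 32 had an unadjusted p under 0.05 in edgeR, where 1148 of all 15941 genes did. DESeq2 had 2 higher and 1 lower and limma-voom 1 lower, and for these fits the number over all genes was not counted. DESeq2 called 4 genes in all and limma-voom 0, with no cilia gene among them. Foxj1 was at 12.8 ± 6.08 CPM in MFN2 (SD, n = 3) and 21.7 ± 3.44 CPM in WT (SD, n = 4), a log2 fold change of -0.74 (SE 0.33, edgeR adjusted p = 0.635). Without library 43 it was -0.41 (edgeR adjusted p = 0.863). The median of the 32 genes was 0.29 without library 44, -0.35 without library 47 and -0.12 without library 43.

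Against the same 4 WT libraries, MFN2 libraries 72 to 76 differed in 3753 genes (23.5%), and 3 of the 32 cilia genes were among them, a share below that of all genes. As no WT mouse carries these numbers, the run of numbers and the genotype cannot be told apart here. Foxj1 was lower, at 10.3 ± 1.18 CPM (SD, n = 5) against 21.7 ± 3.44 CPM, a log2 fold change of -1.07 (SE 0.11, edgeR adjusted p = 0.000176). It was the only cilia gene whose groups did not overlap, where 19.7% of all genes did not, and it stayed past the threshold in 20 of 20 alternative fits. Tekt1 was lower by a log2 fold change of -1.01 (SE 0.32, edgeR adjusted p = 0.0361), at 1.01 ± 0.300 CPM against 2.05 ± 0.827 CPM, and passed in 10 of 19 alternatives.

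Ccdc39, the ruler that sets the spacing of dynein arms and spokes, was higher (log2 fold change 0.40, SE 0.13, edgeR adjusted p = 0.0434). It lies at chr3:33812362-33844310 on the minus strand (ENSMUSG00000027676) and measured 15.8, 10.7, 12.3 and 11.9 CPM in WT libraries and 15.5, 17.5, 20.2, 16.4 and 13.6 CPM in libraries 72 to 76. Library 44 reached into the MFN2 range. Libraries 41 to 43 measured 11.2, 14.1 and 25.9 CPM. Ccdc39 passed in 12 of 20 alternatives. Of its exon bases 16.9% are shared with Ttc14 on the other strand, which was itself higher in libraries 72 to 76 by 0.29 on the log2 scale (edgeR adjusted p = 0.0279), and reads on the shared bases could be told apart only by strand. Its partner Ccdc40 did not pass, with a log2 fold change of 0.11 (SE 0.29).

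The other 29 genes did not pass, and 19 of the 32 were above WT and 13 below, with a median of 0.08 where that of all genes was 0.00. Without library 44 the count was 6 (18.8%, against 28.3% of all genes) and the median 0.46. Foxj1 and Ccdc39 stayed. Tekt4 (1.197), Dnah12 (0.80), Cfap65 (0.76) and Dnah9 (0.55) had higher levels in MFN2 by these log2 fold changes. Tekt1 no longer passed, at a log2 fold change of -0.82 (edgeR adjusted p = 0.0809). Without library 47 Foxj1 and Tekt1 were called (6.25%, against 20.2% of all genes) and the median was -0.16.

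The counts of other gene lists in this comparison stand against the 23.5% of all genes called. Among 71 further motile cilia genes 6 were, 4 higher and 2 lower, including Dnaic2, a dynein intermediate chain (log2 fold change -0.67), Tekt2 (0.66), Rsph10b (0.60) and Tppp3 (-0.52). Of 13 multiciliation regulators Rfx4 was lower (-0.49) and Rfx7 higher (0.28), and of 39 transport genes Bbs5, Bbs4 and Ift74 were higher (0.39, 0.30 and 0.27). Of 21 genes of the primary cilium membrane 5 were called, with Gli2, Gli3 and Arl3 lower (-0.48, -0.47 and -0.31) and Tctn1 and Rpgrip1l higher (0.30 and 0.19). Pkd2l1, a channel of the neurons that contact the cerebrospinal fluid at the central canal, was lower (-0.94), the 1 call among 6 markers of these cells. Of 13 ependymal genes outside the axoneme 6 were called, 5 of them lower, with Sox2 at -0.77, Nkx6-1 at -0.70 and Sox9 at -0.53, and Prom1 higher at 0.49; their median was -0.39. Several of these are also expressed in astrocytes. Of 8 astrocyte markers 5 were called, all lower (Gfap -1.08, S100b -0.82), and all 8 had a negative log2 fold change. Of 7 microglia markers 6 were called, all lower, and all 7 had a negative log2 fold change. Of 7 neuron markers Syt1 and Nefm were higher (0.48 and 0.36), and of 6 endothelial markers Cldn5 was lower (-0.81). Of 9 forebrain genes Nrgn was higher (0.58), and of 12 caudal Hox genes Hoxa5 was lower (-0.46). Choroid plexus markers (8 tested), oligodendrocyte markers (8), motor neuron markers (7) and meningeal markers (6) had 0 calls. The part of other cell types in the change of Foxj1 was not tested.

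Libraries 72 to 76 were last compared with MFN2 libraries 41 to 43, of the same genotype. No cilia gene was called, where 365 genes were (2.29%), and the median of the 32 was 0.07, and 0.16 without library 43. It was -0.02 without library 74. Among the ependymal genes outside the axoneme 3 of 13 were called here, Sox2 (-0.59) and Sox9 (-0.47) lower and Prom1 higher (0.52), and of 7 microglia markers, all with a negative log2 fold change, 1 was called (Cx3cr1). Rsph1 had the lowest adjusted p (0.113, edgeR), at 2.69 ± 0.469 CPM (SD, n = 5) against 3.92 ± 0.304 CPM (SD, n = 3), a log2 fold change of -0.55 (SE 0.17). Its libraries did not overlap, at 2.68, 3.46, 2.62, 2.52 and 2.19 CPM in 72 to 76 and 4.23, 3.63 and 3.90 CPM in 41 to 43, which it shared with 18.2% of all genes. DESeq2 called Rsph1 (adjusted p = 0.0405) among 1774 genes. Foxj1 had a log2 fold change of -0.32 (edgeR adjusted p = 0.523), at 10.3 ± 1.18 CPM (SD, n = 5) against 14.2, 18.1 and 6.15 CPM. Without library 43, 2325 genes were called (14.6%), and Foxj1, lower in libraries 72 to 76 by a log2 fold change of -0.65 (edgeR adjusted p = 0.00914), was the cilia gene among them. Without library 42 its log2 fold change was -0.00152 (edgeR adjusted p = 0.998).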

How the data were processed

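Whole-number counts per mouse gene were deposited by the authors, 1 library per mouse, with no normalization. The submitters' processing notes name bcl2fastq, STAR, edgeR and GRCm38.p6; the counting tool and strand setting are not given in the sources used here. Gene symbols, exon lengths and coordinates came from the GRCm38 annotation (GENCODE M21). The 37 genes, the other lists and the tests were chosen with earlier results of these data known.

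Genes above 1 unscaled CPM in at least 3 libraries were tested with edgeR 4.0.16 (quasi-likelihood, TMM factors, R 4.3.3), Benjamini-Hochberg threshold 0.05, for each comparison in a fit of its own libraries; scripts were tested on simulated data. CPM are counts scaled to the TMM-adjusted library size over tested genes, RPKM the same per kilobase of exon, and correlations used log2 CPM with a prior count of 2. DESeq2 1.42.0, limma 3.58.1 (voom), no filter, another length and left-out libraries were alternatives. Genes given library by library were the 6 highest by RPKM, members called in a comparison and the 4 largest differences of MFN2 against WT. P-values measure the spread between these mice. No 2 libraries of the same genotype were duplicates (lowest chi-square per gene 5.35). Total counts were 19359454 to 26738930. At this depth most cilia genes had few counts (median 91.5 per tested gene and library), which limits their precision.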

Additional observations from a re-analysis of the deposited data

Results flagged for a closer look

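For each tested cilia gene and a few sums, the highest and lowest library of each genotype was compared with the rest of its group by the gap to its nearest neighbour over the whole range of the group (Dixon's ratio). Of 76 such series 5 stood out (6.58%), and chance alone gives about 1 in 20. In MFN2 the library that stood out was 43 in all 4 cases, the library with forebrain genes: Rsph9 at 9.06 CPM against 2.65 to 5.23 CPM in the other 7 (ratio 0.598), Dnah5, an outer arm dynein chain, at 15.3 CPM against 6.82 to 10.1 CPM (0.607), Cfap45 at 7.37 CPM against 3.29 to 5.05 CPM (0.568) and Drc1 at 18.8 CPM against 5.57 to 10.1 CPM (0.661). In WT it was library 44 for Cfap44, at 15.2 CPM against 6.05 to 7.58 CPM in the other 3 (0.833).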

How the results depend on the processing

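The count of cilia genes past the threshold was 0 in MFN2 against WT, 0 within libraries 41 to 47, 3 in libraries 72 to 76 against WT and 0 in libraries 72 to 76 against 41 to 43. With each library left out in turn these counts ran from 0 to 0, 0 to 0, 1 to 6 and 0 to 1. In the third comparison the count was 6 without library 44 and 1 without library 45, 46, 72, 73 or 75. Of all genes 28.3% were called without library 44, against 23.5% with every library. Without libraries 45, 46, 72, 73 and 75 the shares of all genes were 14.8%, 15.6%, 19.3%, 19.5% and 17%. No left-out library removed Foxj1. DESeq2 gave 1 in MFN2 against WT (Foxj1), where it called 1.25% of all genes. In libraries 72 to 76 against 41 to 43 it gave 1 (Rsph1), where it called 11.1% of all genes. With 1 fit of 3 groups over all 12 libraries the count was 1 in libraries 72 to 76 against WT (Foxj1). That fit called 7.68% of all genes there. In that comparison the count was 4 with no filter (Tekt4 added), a share of 10.8% against 11% of all genes. It was 2 with limma-voom (Tekt1 lost), 6.25% against 24%. With a filter of more than 1 CPM in all 12 libraries, which left Tekt1 untested, it was 2, 8.33% against 25.4%. Leaving out libraries 43 and 44 together, chosen after seeing the data, gave 1 in MFN2 against WT, where 0.941% of all genes were called. The cause of these moves was not tested. Rsph1 in MFN2 against WT was at a log2 fold change of -0.03 and changed sign in 10 of 24 alternatives: it ran from -0.258 to 0.323 with each library left out in turn, and was 0.0134 with library size only, 0.0465 with limma-voom, 0.284 with a term for the runs of numbers, 0.273 without libraries 43 and 44 and 0.0649 without 44 and 47. The other fold changes listed for the genes given library by library kept their sign: Foxj1, Tekt1, Tekt4, Rsph9, Drc1, Nme5 and Ccdc39 in MFN2 against WT, Foxj1 within libraries 41 to 47, Foxj1, Tekt1 and Ccdc39 in libraries 72 to 76 against WT, and Rsph1 and Foxj1 in libraries 72 to 76 against 41 to 43. No paired analysis was made, as the labels used here pair no MFN2 mouse with a WT mouse. Raw counts of 4 to 553 limit what differences could be seen, and a count that did not pass does not show equal levels.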
